A study of Mus musculus with 4 samples.

Results

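The 10 genes described here encode the enzymes and the helper protein that make leukotrienes and prostaglandins: *Pla2g4a*, *Alox5*, *Alox5ap*, *Ltc4s*, *Lta4h*, *Ptgs1*, *Ptgs2*, *Hpgds*, *Ptges* and *Tbxas1*. They were taken by symbol from the 23337 genes of the deposited table, and all 10 were found there and passed the filter on low counts. Medullary thymic epithelial cells (mTECs), sorted as CD45-EpCAM+UEA-1+Ly51- from the thymus of C57BL/6 mice of 4 weeks, were measured by RNA-seq in 4 libraries. The libraries WT 1 and WT 2 came from wild-type mice, described as littermates without *Foxn1*-Cre or as age-matched animals. The libraries cKO 1 and cKO 2 carry the genotype *Sirt6*-/- in the labels and came from *Foxn1*-Cre *Sirt6* loxp/loxp mice, called *Sirt6* cKO. *Foxn1* drives Cre in thymic epithelial cells, so other cells in a sort would keep the gene. The sources used here do not say how many mice each library held. The comparison asks how loss of *Sirt6*, which encodes a deacetylase, changes the mTEC transcriptome.

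Leukotrienes and prostaglandins are lipid mediators made from arachidonic acid, which cytosolic phospholipase A2 frees from membranes. The 5-lipoxygenase branch makes leukotrienes, and the cyclooxygenase branch makes prostaglandin H2, which terminal synthases turn into prostaglandins D2 and E2 or thromboxane. In the thymus, tuft cells, a subset of mTECs that resembles the chemosensory cells of the gut and airway, are known to express enzymes of both branches. Macrophages and mast cells also make these mediators.

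The libraries held between 61102704 and 65907745 counts, so that 1 count was worth between 0.0153 and 0.0166 CPM (counts scaled by library size and TMM factors). The targeted gene *Sirt6* was counted 622 and 755 times in WT against 882 and 835 times under the cKO label. It was therefore not lower under the cKO label (log2 fold change 0.37 ± 0.32, standard error; edgeR adjusted p = 0.80), and every direction given here rests on the labels. A count over the whole gene does not show whether the part between the loxp sites was lost. The mTEC markers, *Epcam* and *Aire* among them, summed to between 10050 and 10830 CPM. Most of that sum was *H2-Aa*, at 7527 and 7123 CPM in WT against 8228 and 7408 CPM under the cKO label. The sum therefore says little about the other mTEC markers, some of which differed between the groups as given below. Markers of cells that the CD45- gate should remove were also present. Thymocyte markers, for example, summed to 1307 and 894 CPM in WT against 1103 and 644 CPM in the libraries labelled cKO, with 0 of 8 past an unadjusted p of 0.05 in edgeR or an adjusted p of 0.05 in DESeq2.

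The 10 genes spanned a wide range of levels in TPM, a unit that corrects for transcript length. In WT, *Ptgs2* was highest at 420 ± 100.1 TPM (SD, n = 2), followed by *Lta4h* at 219 ± 58.5 (SD, n = 2), *Pla2g4a* at 138 ± 14.4 (SD, n = 2) and *Alox5ap* at 75.3 ± 6.87 (SD, n = 2). *Ptges* and *Hpgds* came next at 57.8 ± 8.51 and 47.6 ± 7.51 TPM (SD, n = 2), and their ranges overlapped. *Alox5*, *Ptgs1* and *Ltc4s* stood at 22.7 ± 8.27, 18.1 ± 4.38 and 16.4 ± 3.68 TPM (SD, n = 2), also with overlapping ranges, and *Tbxas1* was lowest at 9.94 ± 4.17 (SD, n = 2). Under the cKO label *Ptges* lay at 128 ± 9.50 TPM (SD, n = 2), above *Alox5ap* (33.7 ± 16.9; SD, n = 2). In the same libraries *Ptges* (121.1 and 134.6 TPM) overlapped with *Pla2g4a* (121.9 and 176.9 TPM; 149 ± 38.9; SD, n = 2). There *Ptgs1* (9.59 and 10.7 TPM) lay above *Alox5* (9.18 and 4.52 TPM), and *Tbxas1* (2.86 and 7.26 TPM) overlapped with *Ltc4s* (5.56 and 5.35 TPM). The sum over the 10 genes was 971 and 1078 TPM in WT against 1199 and 1149 TPM in the libraries labelled cKO. *Ptgs2* alone made up 36.0% and 45.5% of that sum in WT against 54.4% and 51.0% under the cKO label.

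**Figure D1:**
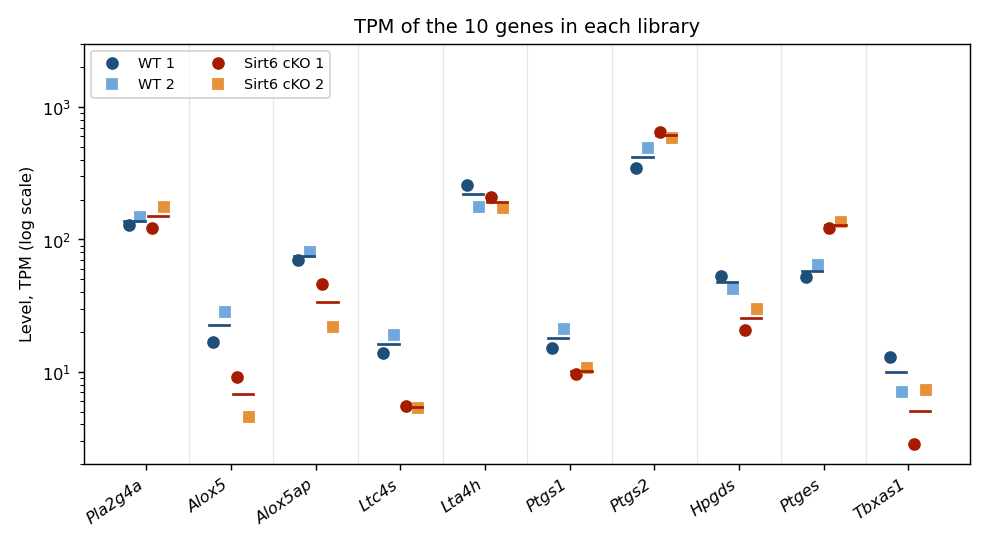
TPM (log axis) of the 10 genes in each of the 4 libraries, with a short line at the mean of each group of 2. *Alox5*, *Alox5ap*, *Ltc4s*, *Ptgs1* and *Hpgds* lie lower in both libraries labelled cKO, *Ptgs2* and *Ptges* lie higher, and the points of *Pla2g4a*, *Lta4h* and *Tbxas1* overlap between the groups.

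Of the 10 genes, 5 were lower and 2 were higher in the libraries labelled cKO at an unadjusted p of 0.05. *Alox5*, *Alox5ap*, *Ltc4s*, *Ptgs1* and *Hpgds* were the lower ones, and *Ptgs2* and *Ptges* the higher ones, while *Pla2g4a*, *Lta4h* and *Tbxas1* did not pass. Of all 18547 genes tested, 3.32% were lower and 5.27% higher by the same rule, 8.58% in all. That split over all genes, 615 lower and 977 higher, turned to 800 lower and 751 higher with upper quartile factors and to 838 lower and 721 higher with unscaled library sizes. The median log2 fold change of the 10 genes was -0.86, beside -0.005 over all genes tested. With adjustment over all genes, 0 of the 10 passed 0.05 in edgeR's test, as did 0.00539% of all genes. DESeq2 gave an adjusted p under 0.05 to *Alox5* and *Ptges*, beside 0.795% of its genes lower and 1.03% higher. The groups did not overlap in the same 7 genes. Such separation occurred downward in 20.3% and upward in 21.6% of all genes tested, 41.9% in all. For a single value, 2 libraries against 2 give an exact two-sided permutation p of 0.333 at the least. In sorted bulk samples, fewer cells of a type and less RNA per cell cannot be told apart.

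**Figure D2:**
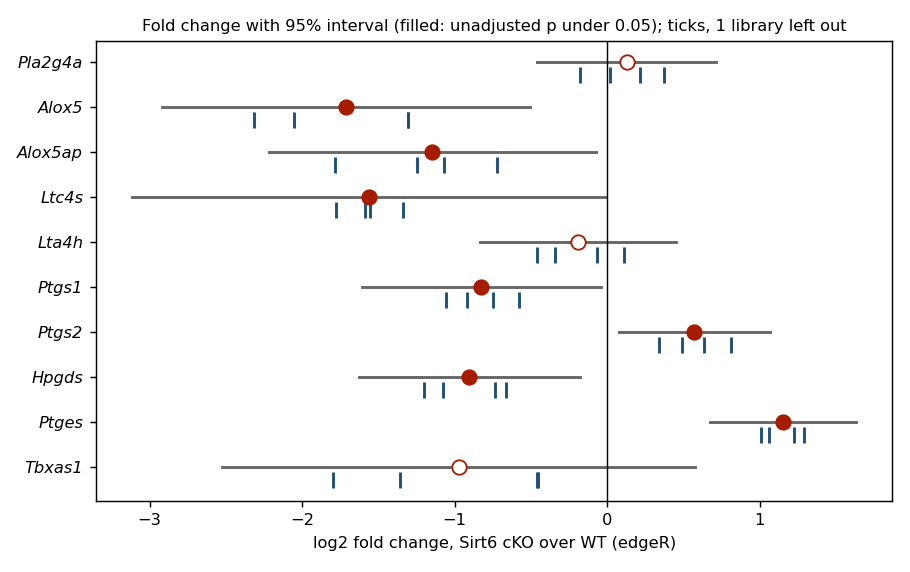
Log2 fold change of each gene (circles, filled where the unadjusted p of edgeR's test was under 0.05) with its 95% interval (lines), and the 4 values with 1 library left out (ticks). The intervals of *Ltc4s* and *Ptgs1* end close to 0, and all ticks of *Ptges* lie between 1.01 and 1.29.

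*Pla2g4a*, on chromosome 1 (GRCm38, equal to mm10; 149829618 to 149961290), encodes the cytosolic phospholipase A2 that frees arachidonic acid. Its counts were 10957 and 12007 in WT against 9614 and 14729 under the cKO label. The WT values lay between those of the other group. The log2 fold change of *Pla2g4a* was 0.13 (95% interval from -0.46 to 0.71), and it turned to -0.18 without cKO 2.

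In the leukotriene branch, the 3 genes from 5-lipoxygenase to leukotriene C4 were lower at the unadjusted p, and the gene of the leukotriene B4 step was not distinguishable between the groups. *Alox5* encodes 5-lipoxygenase, the enzyme that makes leukotriene A4, and lies on chromosome 6 from 116410077 to 116461178. WT libraries held 1437 and 2301 counts of it, against 719 and 374 under the cKO label. Both libraries labelled cKO were below both WT libraries, although the members of each group also differed widely. The WT mean was 29.1 ± 10.04 CPM (SD, n = 2) and the cKO mean 8.87 ± 4.30 CPM (SD, n = 2), 3.28-fold lower. edgeR gave a log2 fold change of -1.71 ± 0.48 (standard error) with an adjusted p = 0.54, and DESeq2 an adjusted p = 0.0404. The edgeR value was -1.31 without WT 2 and -1.31 without cKO 2, and neither passed the unadjusted p.

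*Alox5ap* encodes FLAP, the membrane protein that presents arachidonic acid to 5-lipoxygenase, and lies on chromosome 5 from 149264767 to 149288153. It was counted 1817 and 1954 times in WT against 1082 and 544 times under the cKO label. The WT libraries lay close together, and the other 2 differed from each other by nearly as much as from WT. By edgeR it was 2.21-fold lower, at -1.15 ± 0.43 on the log2 scale (standard error; adjusted p = 0.56). With single libraries left out it ranged from -1.78 to -0.72 and passed the unadjusted p only without cKO 1, failing at -1.24 without WT 1, -1.07 without WT 2 and -0.72 without cKO 2. The library cKO 2 was the lowest for both *Alox5* and *Alox5ap*. The ratio of *Alox5ap* to *Alox5* in TPM was 4.19 and 2.81 in WT against 4.98 and 4.81 under the cKO label.

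*Ltc4s*, on chromosome 11 from 50236461 to 50238616, encodes leukotriene C4 synthase, which joins glutathione to leukotriene A4 to make the first of the cysteinyl leukotrienes. Counts of *Ltc4s* reached only 245 and 318 in WT against 91 and 93 under the cKO label. The latter 2 values nearly coincided, and both were well under the lower WT value. The WT mean was 4.37 ± 0.89 CPM (SD, n = 2) and the cKO mean 1.48 ± 0.041 CPM (SD, n = 2), 2.95-fold lower. edgeR gave a log2 fold change of -1.56 ± 0.62 (standard error) with an adjusted p = 0.58. The 95% interval ran from -3.11 to -0.009, and the unadjusted p was not passed with any single library left out, at values from -1.78 to -1.34, nor without the filter on low counts (-1.56). Exons of *Ltc4s* overlap those of *Gm26542* on the other strand by 268 bases, and exons of *Alox5ap* those of *Gm19719* by 189 bases. The sources used here do not say whether counting used strand, so reads of such partners cannot be told apart.

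*Lta4h* encodes the hydrolase that turns leukotriene A4 into leukotriene B4, and lies on chromosome 10 from 93453411 to 93484875. WT 1 held 16221 counts and WT 2 held 10453, against 11992 and 10402 under the cKO label. In CPM, WT 1 was highest at 248 and cKO 1 followed at 199, while WT 2 at 164 and cKO 2 at 162 lay close together. The log2 fold change of *Lta4h* was -0.19 (95% interval from -0.84 to 0.45) and turned to 0.11 without WT 1. In TPM, *Lta4h* exceeded *Ltc4s* by 18.9 and 9.36 times in WT against 37.7 and 32.1 times under the cKO label.

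Of the cyclooxygenases, *Ptgs1* was lower and *Ptgs2* higher at the unadjusted p. *Ptgs1*, on chromosome 2 from 36230426 to 36252272, encodes the cyclooxygenase that most tissues express constitutively, and *Ptgs2*, on chromosome 1 from 150100031 to 150108227, the form that inflammatory and growth signals induce. For *Ptgs1*, the counts were 1300 and 1734 in WT against 762 and 896 under the cKO label. The groups did not overlap, and edgeR placed the gene 1.77-fold lower, at -0.82 ± 0.31 on the log2 scale (standard error; adjusted p = 0.56). For *Ptgs2*, the counts were 43754 and 58086 in WT against 74951 and 71061 under the cKO label. These groups did not overlap either, and the WT mean was 791 ± 173 CPM (SD, n = 2) against 1175 ± 94.7 CPM (SD, n = 2). edgeR placed *Ptgs2* 1.49-fold higher, at 0.57 ± 0.20 on the log2 scale (standard error; adjusted p = 0.55). The TPM of *Ptgs2* was 23.3 and 23.2 times that of *Ptgs1* in WT against 68.1 and 54.8 times under the cKO label.

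Both cyclooxygenase calls depended on single libraries and on the processing. *Ptgs1* lay at -0.58 without WT 2, -0.75 without cKO 1 and -0.92 without cKO 2, and did not pass the unadjusted p in these 3 fits. It was also not called by limma on log2(TPM + 1) (-0.76) or log2(TPM + 0.1) (-0.81). *Ptgs2* lay at 0.34 without WT 1 and 0.49 without cKO 1, and did not pass in those. It was also not called with upper quartile factors (0.49) or unscaled library sizes (0.48). *Ptgs2* lies 138740 bases from its neighbour *Pla2g4a*, for which no difference was detectable. Exons of *Ptgs1* overlap those of *Gm43621* on the other strand by 148 bases.

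At the terminal synthases, *Hpgds* was lower and *Ptges* higher at the unadjusted p. *Hpgds*, on chromosome 6 from 65117293 to 65144908, encodes the hematopoietic prostaglandin D synthase. Its counts were 5264 and 3975 in WT, with no overlap to the 1895 and 2884 under the cKO label. The WT mean was 71.4 ± 12.7 CPM (SD, n = 2) and the cKO mean 38.2 ± 9.59 CPM (SD, n = 2), 1.87-fold lower. edgeR gave -0.90 ± 0.29 on the log2 scale (standard error; adjusted p = 0.54). It lay at -0.73 without WT 1 and -0.67 without cKO 1, where it did not pass the unadjusted p.

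*Ptges*, on chromosome 2 from 30889471 to 30929863, encodes the microsomal prostaglandin E synthase, which acts together with the inducible cyclooxygenase. It was counted 5706 and 6645 times in WT against 12239 and 14354 times under the cKO label. Both libraries labelled cKO were far above both WT libraries, and the libraries within each group lay close together. The WT mean was 95.8 ± 12.2 CPM (SD, n = 2) and the cKO mean 213 ± 14.9 CPM (SD, n = 2), 2.23-fold higher. edgeR gave 1.15 ± 0.19 on the log2 scale (standard error; 95% interval from 0.68 to 1.63; adjusted p = 0.54), and DESeq2 an adjusted p = 4.43e-04. Of the 10 genes, *Ptges* alone passed the unadjusted p under each of the 12 alternatives, with values from 1.01 to 1.29. *Ptges* and *Hpgds* were near parity in WT, with a TPM ratio of 0.980 and 1.51, and the ratio was 5.84 and 4.50 in the libraries labelled cKO.

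*Tbxas1*, on chromosome 6 from 38875404 to 39084585, encodes thromboxane A synthase. WT 1 held 770 counts and WT 2 held 395, against 157 in cKO 1 and 420 in cKO 2. The groups overlapped, with cKO 1 lowest and cKO 2 just above WT 2. The log2 fold change of *Tbxas1* was -0.97 (95% interval from -2.52 to 0.58), and it lay between -1.80 and -0.45 with single libraries left out. It passed the unadjusted p only without cKO 2. The exons overlap those of *Gm42962* on the other strand by 144 bases.

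The 250 bases before the start sites of *Ptgs1*, *Hpgds*, *Ptgs2* and *Ptges* are shown so that the sequences of the lower and the higher genes of the prostaglandin branch can be set side by side. They come from RefSeq on GRCm38.p6, which gave 10 windows for 9 of the 10 genes. The gene spans given above are those of GENCODE, whose outermost starts can differ. The whole *Ptges* window and most of the *Hpgds* window lie inside those spans. Capitals mark matches on either strand to any of 5 motifs. These were the TATA box with the letters TATAAA and the GC box with the letters GGGCGG. They also included the cAMP response element with the letters TGACGTCA, an Ets site of the PU.1 and Spi-B type with the letters GAGGAAGT, and the octamer with the letters ATGCAAAT. The windows are chr2:36230176-36230425 on the + strand for *Ptgs1*, chr6:65144731-65144980 on the - strand for *Hpgds*, chr1:150099781-150100030 on the + strand for *Ptgs2* and chr2:30903298-30903547 on the - strand for *Ptges*. Each is written 5′ to 3′.
Ptgs1: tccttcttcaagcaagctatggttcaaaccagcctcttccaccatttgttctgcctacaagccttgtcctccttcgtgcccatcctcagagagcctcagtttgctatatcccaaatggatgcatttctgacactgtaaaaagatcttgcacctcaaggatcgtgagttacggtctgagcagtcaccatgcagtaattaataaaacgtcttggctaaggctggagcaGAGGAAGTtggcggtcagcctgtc
Hpgds: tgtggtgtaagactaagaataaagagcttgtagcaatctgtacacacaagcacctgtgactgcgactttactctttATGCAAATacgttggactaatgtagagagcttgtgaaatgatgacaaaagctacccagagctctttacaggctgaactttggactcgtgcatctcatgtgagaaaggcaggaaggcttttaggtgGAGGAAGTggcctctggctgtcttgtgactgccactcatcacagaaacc
Ptgs2: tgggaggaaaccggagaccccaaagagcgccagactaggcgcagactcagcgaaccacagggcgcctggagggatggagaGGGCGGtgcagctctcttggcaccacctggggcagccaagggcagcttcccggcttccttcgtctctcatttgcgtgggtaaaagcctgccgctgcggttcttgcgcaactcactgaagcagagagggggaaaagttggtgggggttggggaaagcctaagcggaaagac
Ptges: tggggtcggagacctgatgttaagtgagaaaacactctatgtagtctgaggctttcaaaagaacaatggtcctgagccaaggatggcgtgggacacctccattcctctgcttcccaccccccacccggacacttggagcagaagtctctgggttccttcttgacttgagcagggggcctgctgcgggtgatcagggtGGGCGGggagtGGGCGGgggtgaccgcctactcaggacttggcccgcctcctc

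The windows of the lower genes *Ptgs1* and *Hpgds* each held a match to GAGGAAGT, from -24 to -17 and from -49 to -42 relative to the start, as did 2.44% of 32851 promoter windows. *Hpgds* also held the octamer from -174 to -167, which 1.6% of windows did. The windows of the higher genes held GC boxes, 1 in *Ptgs2* and 2 in *Ptges*, a motif present in 32.7% of windows. The window of *Alox5*, which was lower, also held 1 GC box. *Tbxas1* and 1 of the 2 windows of *Pla2g4a* held a TATA box, as did 12.4% of windows, and *Ltc4s* and *Lta4h* held no match. The cAMP response element, present in 1.55% of windows, matched in none of the 10. These matches describe the letters alone, and no binding was measured here.

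Many tuft cell markers were also lower. Of 15 listed markers, 14 were in the table. Of these, 8 were lower at the unadjusted p of edgeR's test, beside 3.32% of all genes tested. At the adjusted p of DESeq2, 5 were lower, beside 0.795% of its genes. By either, 0 of the markers were higher. Their summed level was 752 and 869 CPM in WT against 442 and 429 CPM in the libraries labelled cKO, and no marker was at 0 in any library. *Rgs13* (log2 fold change -2.13 ± 0.29, standard error) and *Avil* (-1.06 ± 0.19) were among the lower ones. The defining factor *Pou2f3*, which tuft cells need to form, stood at 0.24 ± 0.24, and *Dclk1* and *Gfi1b* stood at 0.36 and 0.55, none of which passed.

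Some macrophage markers were lower as well. All 12 listed markers were in the table, and none was at 0 in any library. At the unadjusted p of edgeR's test, 6 were lower, beside 3.32% of all genes tested. At the adjusted p of DESeq2, 5 were lower, beside 0.795% of its genes. By either, 0 of the markers were higher. Their sum was 5793 and 3357 CPM in WT against 2157 and 2311 CPM in the libraries labelled cKO, and without *Lyz2* it was 1146, 543, 379 and 405 CPM in the same order. *C1qc*, a complement gene of macrophages, stood at -1.93 ± 0.48 on the log2 scale (standard error). Its level was 166 and 63.2 CPM in WT against 28.1 and 31.9 CPM in the libraries labelled cKO, so the WT libraries differed widely. *Csf1r*, the receptor that macrophages need to survive, stood at -0.56 ± 0.32 without passing.

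Of 10 mast cell and basophil markers, 1 was lower and 0 were higher at the unadjusted p, beside 3.32% and 5.27% of all genes tested. The sum of these markers overlapped between the groups, at 1137 and 1067 CPM in WT against 828 and 1239 CPM in the libraries labelled cKO. Most of that sum was *Hdc*, at 976 and 922 CPM in WT against 734 and 1119 CPM under the cKO label. By direction alone, 9 of the 10 markers fell and 1 rose. Of them, 5 lay lower without overlap, beside 20.3% of all genes tested. Of the 8 dendritic cell, 7 neutrophil, 5 platelet, 5 B cell and 7 stromal and endothelial markers in the table, 0 passed an unadjusted p of 0.05 in edgeR's test and 0 passed an adjusted p of 0.05 in DESeq2. Of 5 cortical epithelial markers, 1 was higher at the unadjusted p. The shares over all genes tested, 3.32% lower and 5.27% higher, also stand beside this list and the next. Among 9 mTEC markers, *Epcam* (0.48), *Aire* (0.65) and *Cd80* (0.94) were higher at the unadjusted p, beside *Ptgs2* and *Ptges*, and *Ccl21a* (-2.37) was lower. The part of any of these cells in the levels of the 10 genes was not tested.

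**Figure D3:**
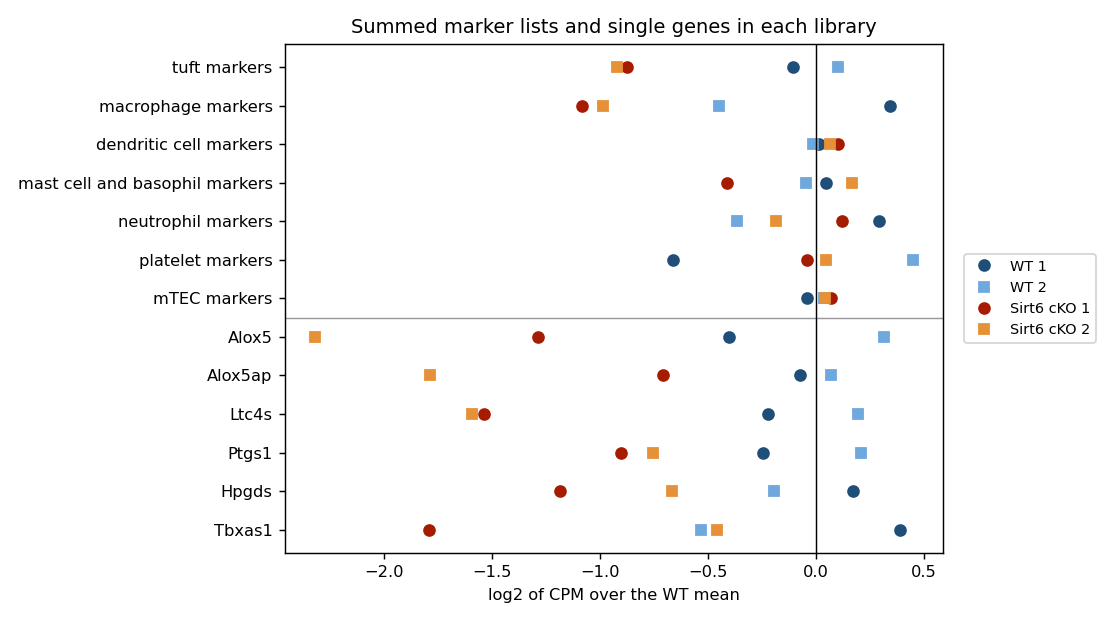
Summed CPM of 7 marker lists (above the line) and CPM of 6 single genes (below it) in each library, as log2 of the value over the WT mean. The tuft and macrophage sums lie lower in both libraries labelled cKO, while the points of the mast cell and basophil and the neutrophil sums overlap between the groups.

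Among 53 other listed genes of the pathway, 52 were in the table under their own or an older symbol and 51 were tested. By the unadjusted p, 1 of these was lower and 3 higher, while 47 did not pass, beside 3.32% and 5.27% of all genes tested. The median log2 fold change was 0.18, and 0 genes passed an adjusted p of 0.05 in edgeR's test or in DESeq2.

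The higher genes were the carriers *Slco2a1* and *Abcc1*, 2 of 7 genes of transport and breakdown, and *Ptger3*, 1 of 9 prostanoid receptors. *Slco2a1* encodes the prostaglandin transporter that takes the mediators into cells. WT libraries held 4074 and 6067 counts of it, against 8545 and 9830 under the cKO label, at 0.90 ± 0.26 on the log2 scale (standard error; edgeR adjusted p = 0.54). *Abcc1*, which exports leukotriene C4 among other conjugates, was counted 5439 and 7199 times in WT against 10569 and 9923 times under the cKO label, at 0.75 ± 0.23 on the log2 scale. *Ptger3*, a receptor for prostaglandin E2, was counted 2172 and 2560 times in WT against 3532 and 4929 times under the cKO label, at 0.88 ± 0.26 on the log2 scale. The groups did not overlap in these 3 genes. *Slco2a1* did not pass without WT 1 (0.60) or cKO 2 (0.83), *Abcc1* without WT 1 (0.52) or cKO 1 (0.66), and *Ptger3* without WT 1 (0.73) or cKO 2 (0.66).

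The lower gene was *Pla2g2d*, a secreted phospholipase A2 and 1 of 11 phospholipases tested. It was counted 4091 and 2862 times in WT against 1610 and 1924 times under the cKO label, without overlap. edgeR gave -0.92 ± 0.28 on the log2 scale (standard error; adjusted p = 0.54), and the gene did not pass without WT 1 (-0.69) or cKO 1 (-0.84).

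The highest level of the whole list was that of *Alox12e*, a 12-lipoxygenase, at 1886 ± 188 TPM (SD, n = 2) in WT and 2109 ± 289 TPM (SD, n = 2) in the libraries labelled cKO. It stood at 0.17 on the log2 scale (95% interval from -0.22 to 0.56). Besides *Alox5* and the other synthesis genes, 0 of 6 lipoxygenases, 6 prostanoid synthases, 7 genes of leukotriene conversion and 5 leukotriene receptors passed an unadjusted p of 0.05 in edgeR's test or an adjusted p of 0.05 in DESeq2. *Cysltr2*, a receptor for the cysteinyl leukotrienes, stood at 179 ± 12.9 TPM (SD, n = 2) in WT and 218 ± 13.6 TPM (SD, n = 2) in the other group, or 0.29 on the log2 scale (95% interval from -0.14 to 0.73). *Hpgd*, whose enzyme starts the breakdown of prostaglandins, stood at 153 ± 22.6 and 127 ± 17.1 TPM (SD, n = 2), or -0.26 on the log2 scale (95% interval from -0.80 to 0.27). Its TPM was 2.65 times that of *Ptges* in both WT libraries, and 0.948 and 1.03 times in the libraries labelled cKO. *Ptges3*, a cytosolic prostaglandin E synthase and cochaperone, stood at 0.55 ± 0.32 (standard error) on the log2 scale, and 22.2% of its 50-base words occur in other annotated genes. *Mgst3*, a microsomal glutathione transferase that can also make leukotriene C4, stood at -0.51 ± 0.33.

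**Figure D4:**
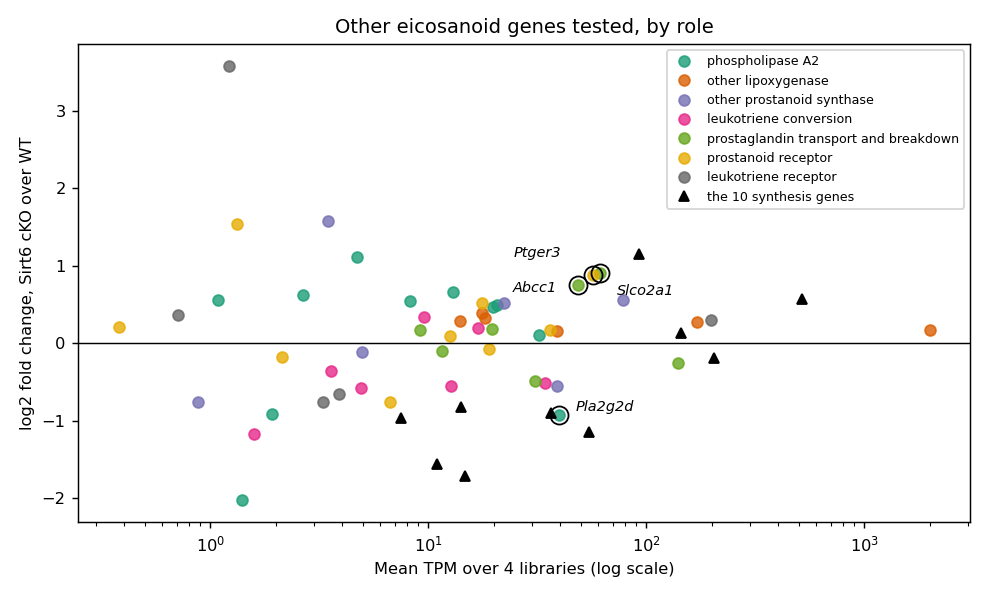
Log2 fold change against the mean TPM of the 4 libraries (log axis) for the 51 other eicosanoid genes tested, coloured by role, with the 10 synthesis genes as triangles. Rings mark the 4 genes past an unadjusted p of 0.05. *Alox12e* lies at the far right near 0.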

How the data were processed

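According to the submitters' processing notes and the methods, reads were trimmed (Trim Galore), mapped to mm10 (HISAT2 2.1.0) and quantified per gene (StringTie 1.3.3). The deposited counts are whole numbers without normalization. The deposited TPM files hold a score per gene, TPM, that the authors scaled to the same total in each library. A last line of each TPM file names no gene, repeats the total and was left out. The gene annotation and the use of strand are not given in the sources used here.

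Counts of all genes were tested with edgeR 4.0.16 in R 4.3.3, with TMM factors, filterByExpr (at least 10 counts, total at least 15), glmQLFit and two-sided glmQLFTest, which left 18547 genes. Benjamini-Hochberg adjustment ran over these genes, with a threshold of 0.05. Standard errors were the fold change over the root of F, and intervals cover 95%. The libraries of a group are separate samples from sources not described further, so p-values measure only the spread between them. Sampling noise alone did not account for the difference of any pair of libraries (chi-square per gene 154 or more). The members, marker lists and pathway list were chosen with earlier results of these data known. All members are named, together with the pathway genes past the unadjusted p and the highest one of each role by TPM. Single marker genes were named after their values were seen. The alternatives were DESeq2 1.42.0 (the tool of the study), no filter, TPM over 0.1 in all libraries, upper quartile factors, unscaled library sizes, a block for the replicate number, limma 3.58.1 on log2(TPM + 1) or log2(TPM + 0.1), and fits without 1 of the libraries. In the latter, the lone library of a group was assumed to vary like the others. The procedure was tested on simulated counts that varied less between libraries than these data, whose common biological coefficient of variation was 0.557. That test therefore does not show how the procedure performs at the spread seen here. Positions, exon overlaps and shared 50-base words came from GENCODE M21 on GRCm38. No protein sequences were used.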

Additional observations from a re-analysis of the deposited data

How the results depend on the processing

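Of 120 refits of single members, 94 kept the direction and the side of an unadjusted p of 0.05, 23 kept the direction without passing, 1 newly passed and 2 turned sign. The latter were *Pla2g4a*, with values from -0.18 (without cKO 2) to 0.37 with a library left out, and *Lta4h*, from -0.46 to 0.11 (without WT 1), neither called in any refit. The count of lower members moved from 5 to between 1 and 2 with a library left out, and the count of higher members from 2 to between 1 and 2, where a group then held 1 library. The lower count was 4 without the filter on low counts, where *Ltc4s* did not pass, and 4 with limma on log2(TPM + 1) or log2(TPM + 0.1), where *Ptgs1* did not pass. The higher count was 1 with upper quartile factors and 1 with unscaled library sizes, where *Ptgs2* did not pass. With DESeq2, 2 members passed an adjusted p of 0.05, against 0 with edgeR. The median log2 fold change of the members lay between -0.825 and -0.56 with a library left out and between -0.95 and -0.83 otherwise. The count of lower genes among the other eicosanoid genes was 1, and it was 2 with TPM over 0.1 in all libraries, 2 with upper quartile factors, 2 with unscaled library sizes, 3 with limma on log2(TPM + 1), 2 with limma on log2(TPM + 0.1), and between 0 and 1 with a library left out. The higher ones were 3, and they were 4 with limma on log2(TPM + 1) and 4 with limma on log2(TPM + 0.1). Over all genes, 1 passed an adjusted p of 0.05 with edgeR, 354 with DESeq2, 7 and 2 with limma on log2(TPM + 1) and log2(TPM + 0.1), 2 with TPM over 0.1 in all libraries, and 0 with the replicate block or with any library left out. At the unadjusted p, 314 genes were lower and 421 higher without cKO 1, against 615 and 977. The causes of these moves were not tested.

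The groups share the replicate numbers 1 and 2, but no source says that a number marks a shared litter or day. Deviations of same-numbered libraries from their group means had r = -0.05 across genes, which are not independent replicates. With the replicate block, 3 members were lower instead of 5, since *Ltc4s* and *Ptgs1* did not pass, and 2 were higher, and the block left fewer residual degrees of freedom. *Ltc4s* and *Tbxas1* had the fewest counts of the members, with 91 to 318 and 157 to 770 per library.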
